A study of Mus musculus with 6 samples.

Results

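The genes described here encode lectin-like receptors best known from natural killer (NK) cells, together with Fcer1g, which encodes a signalling chain that several NK and myeloid receptors share. They are Klrd1, Klrk1, Klrc1, Klrc2, Klre1, Klri1, Klri2, Klrg1 and Fcer1g, taken by name. All 9 were among the 49671 genes of the count table, and 7 passed the filter on low counts that left 12242 genes for testing. RNA was sequenced from OT-I cells, mouse CD8 T cells with a transgenic receptor for an ovalbumin peptide (SIINFEKL). The 2 groups were OT-I cells labelled CD73 KO (3 libraries) and OT-I cells labelled WT (3 libraries). Nt5e encodes CD73, which turns extracellular AMP into adenosine. Splenic CD8 T cells of both genotypes received 10 ng of peptide per mL daily over 5 days, with IL-7 and IL-15 each at 5 ng/mL, to induce exhaustion, and live cells were then sorted. Neither how the knockout was made, nor whether replicates are separate mice or wells, is given in the labels. P-values therefore measure the spread between these libraries, which may be technical.

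CD94, the product of Klrd1, pairs with NKG2A (Klrc1) to form an inhibitory receptor and with NKG2C (Klrc2) or NKG2E (Klrc3) to form activating ones, and these pairs read the non-classical MHC molecule Qa-1 (H2-T23). NKG2D, the product of Klrk1, is an activating receptor for stress-induced ligands and signals through DAP10 (Hcst) and, in mouse, also DAP12 (Tyrobp). Activated CD8 T cells can express such receptors, and IL-15 is known to favour them. In mouse, Klre1 pairs with Klri1 or Klri2, and Klrg1 is an inhibitory receptor of terminal effector cells that binds cadherins.

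Coding sequences show how close the CD94 partners are. The first 60 coding bases of each gene are shown because the inhibitory and activating partners part there. Capitals mark the codons of an inhibitory tyrosine motif (I, L, V or S, any residue, Y, 2 residues, then L, V or I), found in codons 6 to 11 of Klrc1 and not within the first 60 codons of Klrc2 or Klrc3. All sequences are from GENCODE M21 transcripts on GRCm38, 5′ to 3′.
Klrc1: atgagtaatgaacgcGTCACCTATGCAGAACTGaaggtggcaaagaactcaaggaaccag
Klrc2: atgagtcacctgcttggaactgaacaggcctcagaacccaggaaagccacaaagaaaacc
Klrc3: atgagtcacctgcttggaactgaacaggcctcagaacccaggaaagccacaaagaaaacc
The same search matched in Klri1 at codons 16 to 21 and 47 to 52 and in Klrg1 at codons 5 to 10 and 54 to 59. It did not match within the first 60 codons of Klrd1, Klrk1, Klre1 or Klri2. The same 60 codons were searched whatever the length of the cytoplasmic tail. A match, above all a late one, therefore need not lie in the tail or be a working inhibitory motif.

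The last 120 coding bases, from the ligand-binding domain, are shown because they set how well reads can be assigned. Capitals mark the 3 positions at which the 3 genes are not all alike.
Klrc1: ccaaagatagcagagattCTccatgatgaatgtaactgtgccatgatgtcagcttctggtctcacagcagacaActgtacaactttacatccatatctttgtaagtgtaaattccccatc
Klrc2: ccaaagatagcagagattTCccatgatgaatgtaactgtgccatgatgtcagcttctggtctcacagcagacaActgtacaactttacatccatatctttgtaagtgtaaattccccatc
Klrc3: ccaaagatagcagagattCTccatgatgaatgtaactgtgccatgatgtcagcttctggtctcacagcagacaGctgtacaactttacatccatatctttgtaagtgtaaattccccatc
Over the last 360 coding bases Klrc2 was 97.5% identical to Klrc1 and 93.9% to Klrc3. Of all 50-base stretches in the annotated transcripts of Klrc1, 38.6% (783 of 2030) also occurred in another gene. It was 16.3% for Klrc2 (976 of 6003) and 36.3% for Klrc3 (285 of 785). Klrc2 thus had the lower share but more shared stretches than Klrc1, since its annotated transcripts hold more stretches in all. The share was 5.83% for Klri1, 2.77% for Klri2 and 0.308% for Klre1. The share was 0% for Klrd1, Klrk1, Klrg1 and Fcer1g. How reads that fit several genes were counted is not given in the sources used here, so the counts of Klrc1, Klrc2 and Klrc3 are uncertain where they share sequence. No exon of a member overlapped an exon of another annotated gene.

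Fcer1g carries the other kind of motif, an activating ITAM. It is shown with its codons (65 to 79 of 86) in capitals.
Fcer1g: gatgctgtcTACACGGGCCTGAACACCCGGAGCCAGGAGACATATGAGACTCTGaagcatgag

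The genes lie in the NK gene complex on mouse chromosome 6 (GRCm38), from Klre1 (129577905 to 129585827) and Klrd1 (129591782 to 129598775) on the plus strand to Klrk1 (129610323 to 129623864), Klrc3 (129639064 to 129643337), Klrc2 (129647496 to 129660689), Klrc1 (129666015 to 129678973), Klri1 (129697218 to 129717132) and Klri2 (129729041 to 129740484) on the minus strand. Klrg1 lies apart on the same chromosome (122270596 to 122282882), and Fcer1g is on chromosome 1 (171229572 to 171234365).

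The CD73 KO libraries held 10202128 to 19382950 counts and the WT libraries 6934150 to 13039990. CPM below is the count brought to a common depth with TMM factors. The detection floor of 3 counts equals 0.160 to 0.289 in CD73 KO and 0.233 to 0.427 CPM in WT, and intervals for single libraries cover counting error only. Nt5e, the targeted gene, had 69, 128 and 88 counts in CD73 KO and 290, 49 and 263 in WT, so that the library labelled WT replicate 2 lay within the CD73 KO range (log2 fold change -1.67 ± 0.72 (SE), edgeR adjusted p = 0.534), which became -2.14 when that library was left out (adjusted p = 0.339) and -1.05 when WT replicate 3 was left out. Group names below are those of the labels. All 11 markers of CD8 alpha-beta T cells were detected in every library, summing to 6983 to 7761 in CD73 KO and 6751 to 7700 CPM in WT. Of 10 markers of NK and innate lymphoid cells, 2 had at least 3 counts in every library. Klrb1c, which encodes NK1.1, had 65, 23 and 14 counts in CD73 KO and 41, 36 and 7 in WT, and Adgrg1 had 18, 28 and 31 counts in CD73 KO and 58, 22 and 26 in WT. The other 8 had at most 5 counts in a CD73 KO library and at most 8 in a WT library (Ncr1 in both cases), and Il22ra2 was at 0 in all libraries.

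Between genotypes, the receptor genes that were tested were all somewhat higher in CD73 KO and Fcer1g was lower. However, none of the 7 tested members passed the test (edgeR's quasi-likelihood test, Benjamini-Hochberg adjusted over 12242 genes). Over all tested genes, 0.0572% were called. The median log2 fold change of the 7 was 0.33, against 0.01 over all tested genes. At an unadjusted p under 0.05, 5 members were higher (5.75% of all tested genes) and 1 was lower (3.89% of all), against 9.64% of all tested genes in either direction. The groups did not overlap, with CD73 KO higher, at 4 of the 7 (Klrd1, Klrk1, Klrc2 and Klre1), against 7.59% of all tested genes, and at 0 with CD73 KO lower, against 7.6% of all. limma-voom called 0 of the 7 (0.049% of all genes), DESeq2 called 1, Klrc2 (0.81% of all), and edgeR with every gene that had a count called 2, Klrc2 and Klri2 (1.4% of all). The genes were chosen with earlier results known, and neighbours in a cluster need not vary independently, so these counts are descriptions. In bulk RNA from sorted cells, fewer cells of a kind and less RNA per cell cannot be told apart.

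**Figure D1:**
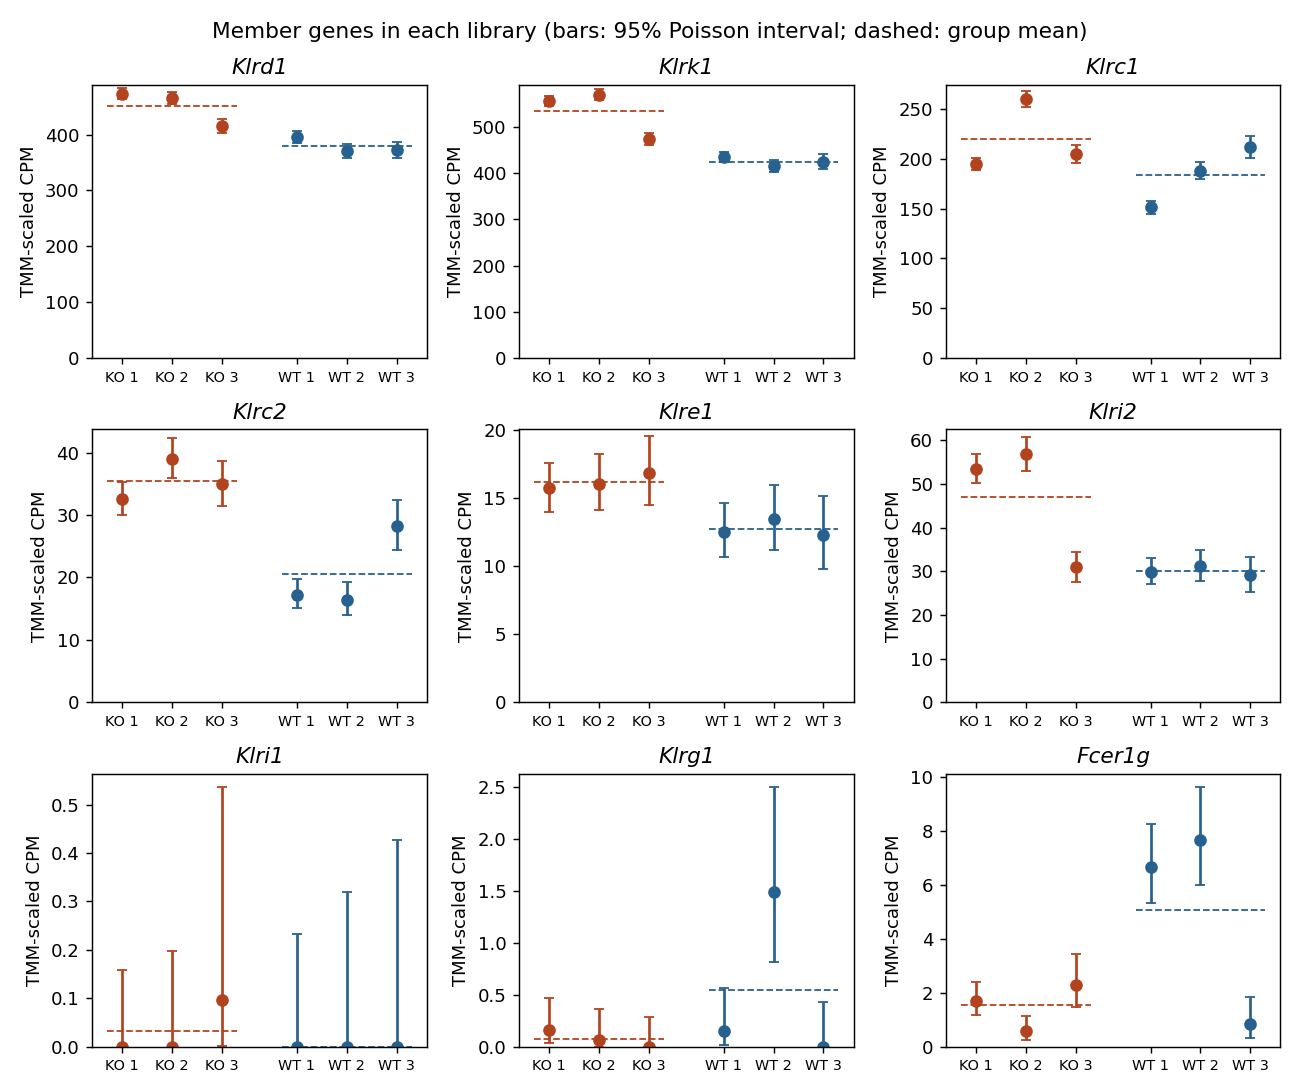
TMM-scaled CPM of each member gene (y axes start at 0 and differ between panels) in the 3 CD73 KO libraries (left, red) and the 3 WT libraries (right, blue), with exact 95% Poisson intervals, or the 3-count floor where the count was 0, and group means as dashed lines. Klrd1, Klrk1, Klrc2 and Klre1 were higher in every CD73 KO library than in any WT library, and Fcer1g stood at 6.69 and 7.67 CPM in WT replicates 1 and 2 and at no more than 2.31 CPM in the other libraries.

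Klrd1, the chain shared by the CD94 receptors, had 473, 466 and 414.5 CPM in CD73 KO, against 395, 371 and 373 CPM in WT. All 3 CD73 KO libraries lay above all 3 WT libraries, with CD73 KO replicate 3 nearest to WT. Mean CPM was 451 ± 31.8 in CD73 KO and 379.5 ± 13.7 in WT (SD, n = 3 each), a log2 fold change of 0.25 ± 0.10 (SE, adjusted p = 0.482, edgeR). Klrk1, which encodes NKG2D, had 557, 570.2 and 475 CPM in CD73 KO, against 435, 415 and 425 CPM in WT. Its 3 WT libraries lay close together, and again all CD73 KO libraries were above them. The log2 fold change of Klrk1 was 0.33 ± 0.10 (SE, adjusted p = 0.368, edgeR).

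Klrc1, encoding the inhibitory chain NKG2A, had 195, 260.1 and 205 CPM in CD73 KO, against 151, 188 and 212 CPM in WT. The groups overlapped, since WT replicate 3 was above 2 of the CD73 KO libraries. The log2 fold change of Klrc1 was 0.26 ± 0.15 (SE, adjusted p = 0.598, edgeR). Klrc2, encoding the activating chain NKG2C, had 32.6, 39.0 and 34.9 CPM in CD73 KO, against 17.3, 16.4 and 28.2 CPM in WT. No library overlapped, but WT replicate 3 lay nearer to the CD73 KO libraries than to the other WT libraries. Mean CPM of Klrc2 was 35.5 ± 3.24 in CD73 KO and 20.6 ± 6.57 in WT (SD, n = 3 each), 1.74-fold higher by the fit (log2 fold change 0.80 ± 0.20, SE, adjusted p = 0.288, edgeR). DESeq2 gave Klrc2 an adjusted p of 0.0288, and the edgeR fit without WT replicate 3 gave 1.07 with an adjusted p of 0.0521. Without the library labelled WT replicate 2 the log2 fold change of Klrc2 was 0.65 (adjusted p = 0.999, edgeR).

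Set against Klrc1, the counts of Klrc2 came to 16.7%, 15% and 17.1% in CD73 KO, against 11.4%, 8.72% and 13.3% in WT. The ranges of this ratio did not overlap, with WT replicate 2 lowest. It compares counts within a library, so it does not depend on the scaling between libraries, but it does depend on how reads common to both genes were assigned. Klrc3, the near copy of Klrc2, had 3.14, 4.36 and 2.21 CPM in CD73 KO, against 1.87, 1.07 and 2.99 CPM in WT (log2 fold change 0.76 ± 0.39, SE, adjusted p = 0.567, edgeR). Its groups overlapped, and leaving out WT replicate 2 gave 0.46. With the counts of Klrc2 and Klrc3 summed to 1 gene, the log2 fold change was 0.79 (adjusted p = 0.319, edgeR).

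The counts of the 3 Klrc genes together came to 48.8%, 65.2% and 58.4% of those of Klrd1 in CD73 KO, against 43.1%, 55.5% and 65.3% in WT. The CD73 KO range lay within the WT range.

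Klre1, a receptor chain without a tyrosine motif in its first 60 codons, had 15.7, 16.04 and 16.8 CPM in CD73 KO, against 12.5, 13.4 and 12.2 CPM in WT. The libraries of each genotype were tight and did not overlap. The log2 fold change of Klre1 was 0.35 ± 0.15 (SE, adjusted p = 0.512, edgeR). Klri2, known in rodents as an activating partner of Klre1, had 53.5, 56.8 and 30.9 CPM in CD73 KO, against 29.9, 31.2 and 29.0 CPM in WT. CD73 KO replicates 1 and 2 stood apart, and CD73 KO replicate 3 lay among the WT libraries. The log2 fold change of Klri2 was 0.65 ± 0.20 (SE, adjusted p = 0.376, edgeR), and 0.87 without CD73 KO replicate 3 (adjusted p = 0.0643, edgeR). Without the library labelled WT replicate 2 it was 0.67 (adjusted p = 0.999, edgeR). Klre1 counts came to 29.4%, 28.3% and 54.5% of Klri2 counts in CD73 KO, against 41.8%, 43.0% and 42.2% in WT. This ratio was nearly constant in WT and split the CD73 KO libraries, with replicate 3 above all others. Klri1, the inhibitory partner of Klre1, had 0, 0 and 1 count in CD73 KO and 0 in each WT library. Klri1 was therefore at or under the floor in all 6 libraries, while its neighbour Klri2 had 204 counts or more in each. Klrg1 had 3, 1 and 0 counts in CD73 KO and 2, 14 and 0 in WT. Above the floor lay only WT replicate 2, with 1.49 CPM of Klrg1 (95% interval 0.815 to 2.5). Klri1 and Klrg1 were not tested.

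**Figure D2:**
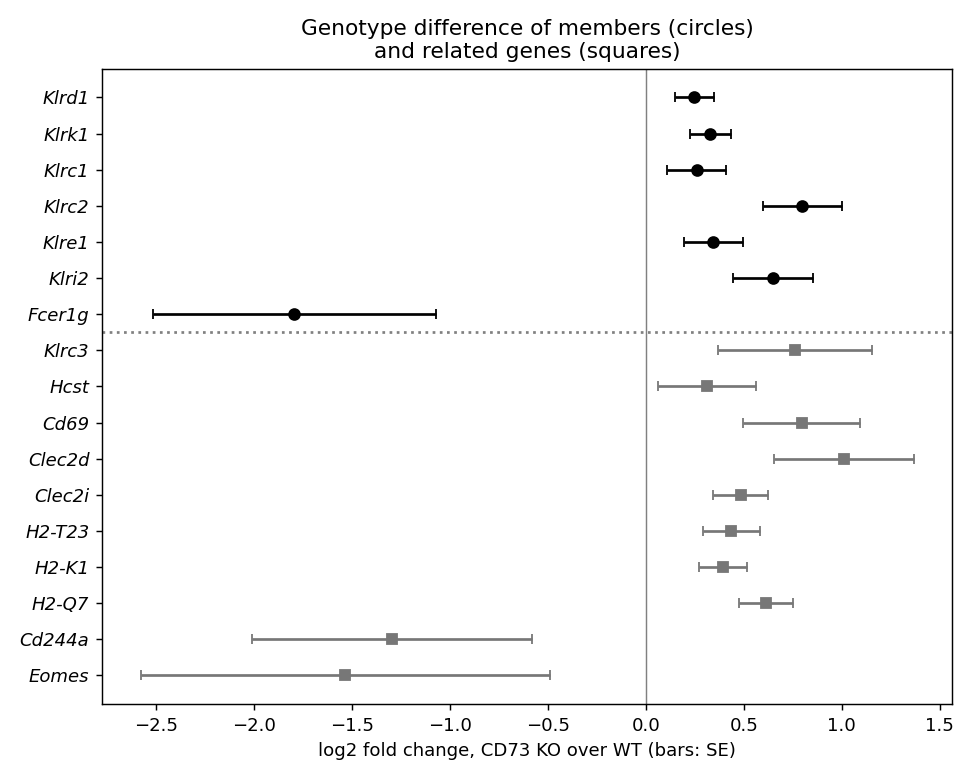
Log2 fold change of CD73 KO over WT (x axis, with SE bars, 3 libraries per genotype) for the 7 tested members (circles) and for some related genes (squares). The squares are a selection from the genes named by rule. Others so named are not plotted, both near 0 (such as Lck and Pik3cd) and far from it (such as Klra5 and Klf2). The 6 receptor members lie between 0.25 and 0.80 and Fcer1g at -1.79, and none of the genes plotted passed the adjusted test in edgeR.

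Compared with each other per length, the members covered a wide range. Per kb of the union of its annotated exons, Klrd1 had 352 ± 24.8 in CD73 KO and 296 ± 10.7 in WT (CPM per kb, SD, n = 3 each), above every other member. Klrc1 followed with 111 ± 17.7 in CD73 KO and 92.7 ± 15.5 in WT, and then Klrk1 with 74.3 ± 7.21 in CD73 KO and 59.2 ± 1.38 in WT. With the longest transcript as the length, Klrk1 came to 164 ± 15.9 CPM per kb in CD73 KO and 130.4 ± 3.04 in WT, above Klrc1, so the order of these 2 genes rests on the length used. For scale, Cd8a had 267 ± 44.6 CPM per kb of exon union in CD73 KO and 222 ± 25.6 in WT. Klri2, Klrc2, Klre1 and Fcer1g formed a lower group on this scale. In CD73 KO they had 12.0 ± 3.60 (Klri2), 6.11 ± 0.558 (Klrc2), 4.64 ± 0.169 (Klre1) and 1.76 ± 0.996 CPM per kb (Fcer1g). In WT they had 7.68 ± 0.278 (Klri2), 3.55 ± 1.13 (Klrc2), 3.64 ± 0.176 (Klre1) and 5.80 ± 4.22 CPM per kb (Fcer1g). Within WT, Klrc2, Klre1 and Fcer1g did not differ beyond their spread. With the longest transcript as the length, Klrc2 came to 11.2 ± 1.02 CPM per kb in CD73 KO and 6.49 ± 2.07 in WT. It then lay near Klri2, whose length was the same by either choice. Klre1 came to 6.73 ± 0.246 in CD73 KO and 5.29 ± 0.256 in WT, so the spacing in this group also rests on the length used.

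**Figure D3:**
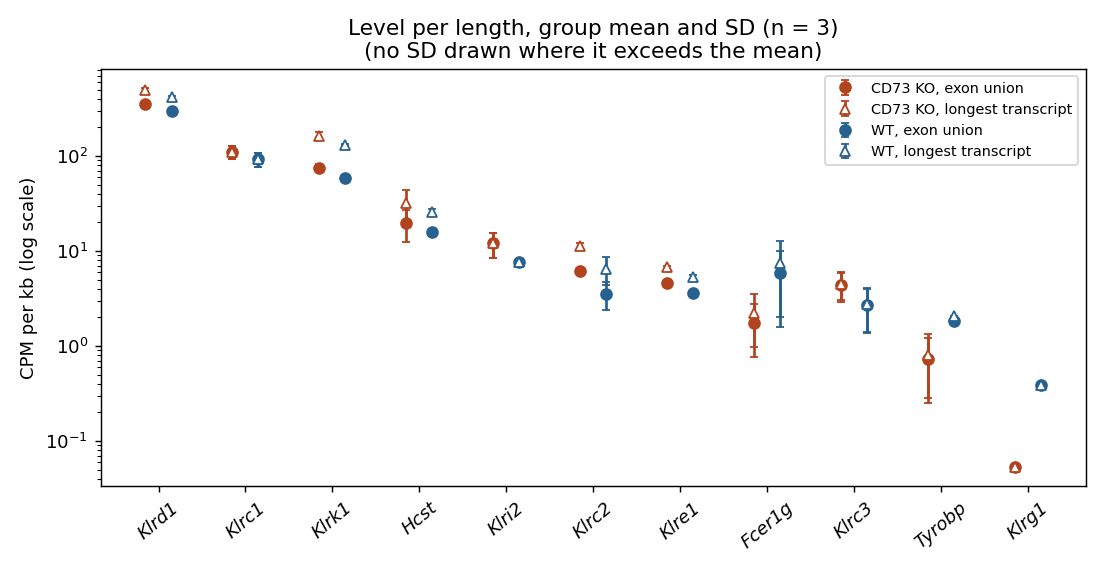
Level per length (CPM per kb, log scale) of members and of Klrc3, Hcst and Tyrobp in CD73 KO (red, left) and WT (blue, right), as group means with SD over 3 libraries, using the exon union (filled circles) or the longest transcript (open triangles). Klri1, at or under the floor, is left out, and no SD is drawn where it exceeds the mean. Klrd1 was highest with either length, while Klrk1 and Klrc1 changed places.

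Fcer1g, the signalling chain, varied more between libraries than the 6 receptor members tested. It had 32, 9 and 24 counts in CD73 KO and 86, 72 and 6 in WT. Its level was 1.70, 0.594 and 2.31 CPM in CD73 KO, against 6.69, 7.67 and 0.854 CPM in WT. WT replicates 1 and 2 were high, and WT replicate 3 (95% interval 0.314 to 1.86 CPM) lay within the CD73 KO range. Mean CPM was 1.54 ± 0.870 in CD73 KO and 5.07 ± 3.68 in WT (SD, n = 3 each), and with a log2 fold change of -1.79 ± 0.72 (SE) the gene did not pass (adjusted p = 0.504, edgeR). It was -2.25 without WT replicate 3 (adjusted p = 0.124, edgeR) and -1.41 without the library labelled WT replicate 2 (adjusted p = 0.999, edgeR). From the lowest to the highest library Fcer1g spanned 12.9-fold, against 1.28-fold for Klrd1, 1.37-fold for Klrk1, 1.38-fold for Klre1, 1.72-fold for Klrc1, 1.96-fold for Klri2 and 2.38-fold for Klrc2.

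The library pattern was compared as the root mean square (RMS) difference of log2 CPM, each gene centred on its own mean over the 6 libraries. A small value means that the centred values lie close together. The measure is not scaled by spread, so genes that vary little lie near each other whatever their order of libraries. Klrd1 and Klrk1 were the closest members, differing by 0.05. Klre1 was next, at 0.12 from both. Genes outside the list lay closer still, such as Fam13b to Klrd1 (0.023), Tram2 to Klrk1 (0.035) and Ptms to Klre1 (0.049). The likeness of these members is therefore not particular to them. Klrc2 was 0.34 to 0.40 from every other receptor gene tested. Fcer1g was 1.34 from Klre1, its nearest member, and 1.71 from Klrc2. Since Fcer1g spanned 3.37 on the log2 scale and Klre1 0.455, this distance holds the spread of Fcer1g itself. It does not mean that Klre1 had a like pattern. All 6 receptor genes tested had their highest library among CD73 KO and their lowest among WT. The share of all tested genes with this order was not counted, so it is a description only. CD73 KO replicate 2 was highest at 4 (Klrk1, Klrc1, Klrc2 and Klri2) and WT replicate 2 lowest at 3 (Klrd1, Klrk1 and Klrc2). At Fcer1g these 2 libraries had the opposite places, WT replicate 2 being highest and CD73 KO replicate 2 lowest. WT replicate 2 was also highest at Klrg1, a receptor gene too low to test.

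For the 2 members spanning at least 1 on the log2 scale, the 3 nearest genes outside the list are named. They come from 9177 genes with a mean of at least 5 CPM. With so many genes and 6 libraries, close patterns are to be found for most genes, and the values are descriptions. Nearest to Fcer1g were Cd244a, an NK receptor of the SLAM family (RMS difference 0.34), Gzma, a granule protease (0.44), and Filip1 (0.54). Cd244a had 14.3, 5.02 and 9.92 CPM in CD73 KO, against 32.9, 33.0 and 5.13 CPM in WT. Gzma had 3.19, 0.660 and 2.79 CPM in CD73 KO, against 7.08, 17.5 and 1.85 CPM in WT. Both shared with Fcer1g that WT replicates 1 and 2 were the highest libraries and CD73 KO replicate 2 the lowest. Their log2 fold changes were -1.29 (Cd244a, adjusted p = 0.611, edgeR, and -0.997 with WT replicate 2 left out) and -2.0 (Gzma, adjusted p = 0.520, edgeR). Nearest to Klrc2 were Hectd2, a ubiquitin ligase (0.13), Npas2, a clock transcription factor (0.14), and Micu3, a regulator of mitochondrial calcium uptake (0.14).

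**Figure D4:**
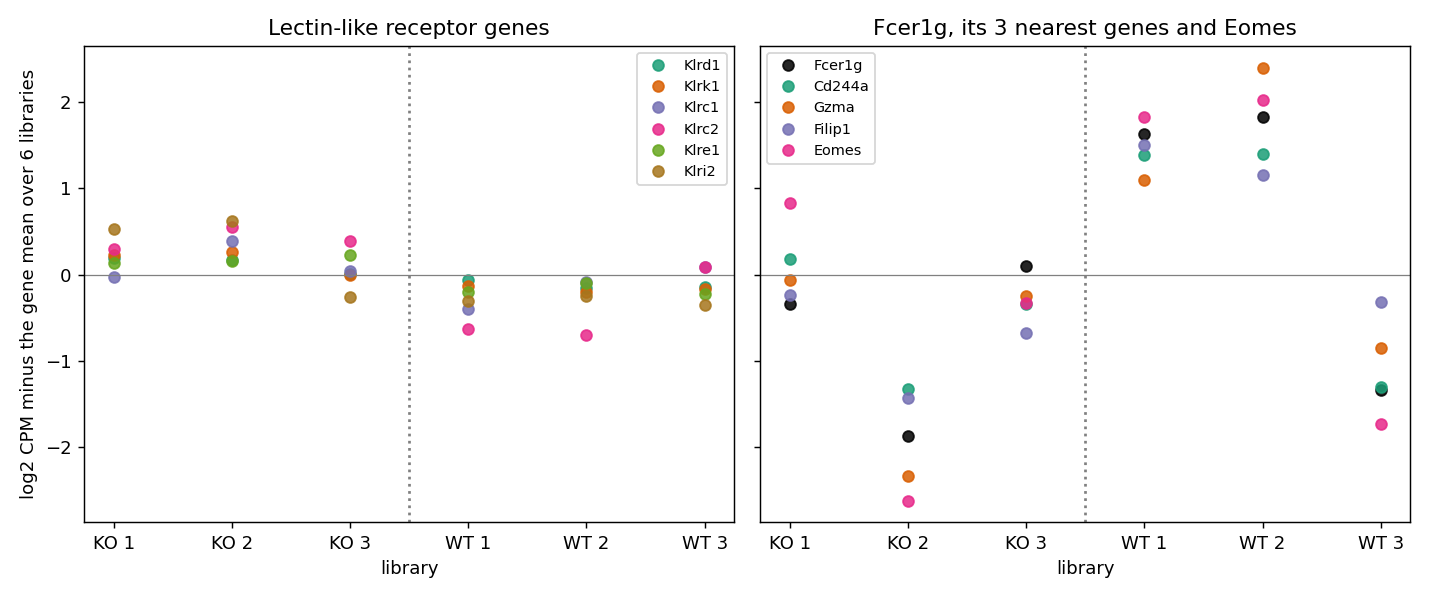
Log2 CPM of each gene minus its mean over the 6 libraries (y axis), by library, CD73 KO left of the dotted line and WT right of it. In the left panel the 6 tested receptor genes vary within about 1 unit of their mean, and in the right panel Fcer1g, Cd244a, Gzma, Filip1 and Eomes are high in WT replicates 1 and 2 and low in CD73 KO replicate 2.

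Markers of other cell types that could carry Fcer1g were read in the same libraries. Of 10 myeloid markers, Lyz2, Csf1r, Spi1, C1qa, Fcgr1 and Csf3r were at 0 in all 6 libraries, and the list summed to 10.7 to 13.3 in CD73 KO and 9.54 to 10.3 CPM in WT, most of it Cd68. Of 6 mast cell and basophil markers, Tpsb2 was at 0 throughout, and the list, mostly Kit, summed to 24.5 to 35.4 in CD73 KO and 16.7 to 25.2 CPM in WT. Mcpt8 had 1 count in each CD73 KO library and 2, 13 and 0 in WT, and Ms4a2 had 4 counts in the library labelled WT replicate 2 and 0 elsewhere. The 10 NK and innate lymphoid markers summed to 3.83 to 5.05 in CD73 KO and 5.27 to 8.95 CPM in WT. The gamma-delta T cell list was detected in full in every library, summing to 96.7 to 119.5 in CD73 KO and 89.1 to 109.8 CPM in WT, most of it Trdc. Its member Tcrg-C4 had 1.33, 0.726 and 0.770 CPM in CD73 KO, against 4.90, 5.65 and 1.57 CPM in WT (log2 fold change -2.08 ± 0.46, SE, adjusted p = 0.252, edgeR). Tcrg-C2 had 6.86, 4.36 and 3.75 CPM in CD73 KO, against 8.94, 10.8 and 4.41 CPM in WT. Cpa3, Tcrg-C2, Tcrg-C4 and the summed NK markers were highest in the same 2 WT libraries as Fcer1g. Trdc, Tcrg-C1, Sox13, Kit, Klrb1c and Adgrg1 were not. Mcpt8 was above the floor only in WT replicate 2, and Cpa3 had at most 13 counts in a library. In WT replicate 1 the NK sum of 7.93 CPM was mostly Adgrg1 (4.51 CPM) and Klrb1c (3.19 CPM), which do not follow Fcer1g singly. The part of these markers in the Fcer1g difference was not tested. B cell markers summed to 1.83 to 2.71 in CD73 KO and 1.17 to 1.99 CPM in WT, CD4 T cell markers to 24.3 to 28.3 in CD73 KO and 28.0 to 35.5 CPM in WT, and NKT and MAIT markers to 10.4 to 14.1 in CD73 KO and 9.72 to 13.0 CPM in WT, with Zbtb16 at 0 throughout.

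Adaptors and signalling partners were nearly balanced around 0. Of 24 adaptors and proximal signalling genes 20 were tested and 0 passed in edgeR. With an unadjusted p under 0.05, 1 was higher, against 5.75% of all tested genes. This was Vav3, a guanine nucleotide exchange factor (0.43 ± 0.18, SE, adjusted p = 0.503, edgeR). The median log2 fold change of the 20 was 0.00. Hcst, the DAP10 adaptor of NKG2D, had 19.8, 9.51 and 13.2 CPM in CD73 KO, against 12.3, 11.4 and 10.5 CPM in WT. CD73 KO replicate 1 was high and the groups overlapped (0.31 ± 0.25, SE, adjusted p = 0.699, edgeR). Tyrobp, the DAP12 adaptor of the activating CD94 receptors, had 14, 2 and 6 counts in CD73 KO and 5, 31 and 0 in WT, and was not tested. As at Klrg1, the library labelled WT replicate 2 was highest, at 3.30 CPM. The kinase Lck (-0.04), the phosphatase Ptpn6 (-0.02), which ITIMs recruit, the kinase subunit Pik3cd (0.00) and Plcg2 (-0.39) had the log2 fold changes given, none passing.

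Among ligands, the 4 MHC class I genes tested had log2 fold changes above 0, and none passed. Of 16 ligand genes listed, 5 were tested and 0 passed in edgeR, with a median log2 fold change of 0.40. Higher at an unadjusted p under 0.05 were 3, against 5.75% of all tested genes. H2-T23, which encodes Qa-1, the ligand of the CD94 receptors, had 283, 241 and 219 CPM in CD73 KO, against 149, 190.1 and 210.0 CPM in WT. Its groups did not overlap, although CD73 KO replicate 3 and WT replicate 3 lay close (0.44 ± 0.14, SE, adjusted p = 0.392, edgeR). H2-Q7 had 0.61 ± 0.14 (SE, adjusted p = 0.266, edgeR), H2-K1 0.40 ± 0.12 and H2-D1 0.24 ± 0.14. Of the NKG2D ligands, Ulbp1 had 48.3, 29.0 and 24.7 CPM in CD73 KO, against 47.7, 43.7 and 23.2 CPM in WT, and Raet1d, Raet1e, H60b and H60c had at most 1 count per library.

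Most other lectin-like genes of the NK gene complex had too few counts to test. Of 34 further lectin-like genes listed, 33 were in the table, 9 were at 0 in all libraries and 10 were tested. None passed in edgeR, and the median log2 fold change was 0.38. An unadjusted p under 0.05 with CD73 KO higher was found at 3, against 5.75% of all tested genes. Clec2d, a ligand of the Klrb1b receptor, had 24.0, 35.7 and 35.4 CPM in CD73 KO, against 11.3, 10.4 and 26.3 CPM in WT (1.01 ± 0.36, SE, adjusted p = 0.462, edgeR), with WT replicate 3 high as at Klrc2. Leaving out WT replicate 2 gave Clec2d 0.78, and leaving out WT replicate 3 gave 1.54. Clec2i had 0.49 ± 0.14 (SE, adjusted p = 0.348, edgeR) and Cd69, an early activation marker, 0.80 ± 0.30. Klra5, a Ly49 receptor gene, had 8.56, 1.65 and 6.55 CPM in CD73 KO, against 44.4, 8.73 and 3.56 CPM in WT, WT replicate 1 alone being high. Its log2 fold change was -1.79 over all libraries and -0.16 with WT replicate 1 left out. Klra5 spanned 26.9-fold between libraries, more than Fcer1g.

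Among 23 other NK-type receptors and ligands, 13 were tested and 0 passed in edgeR, with a median log2 fold change of 0.03. Only 1 was higher at an unadjusted p under 0.05, against 5.75% of all tested genes. This was Slamf6, a SLAM receptor of stem-like T cells (0.89 ± 0.27, SE, adjusted p = 0.379, edgeR). Cd96 had 0.28, Cd7 0.70 (0.32 with WT replicate 3 left out to 1.32 with WT replicate 1 left out), Ly9 0.07 and Cd48 0.01. Among 26 regulators of the NK-like and IL-15 driven programme, 25 were tested and 0 passed in edgeR, with a median of 0.10. Of these, 6 were higher at an unadjusted p under 0.05, against 5.75% of all tested genes. Eomes, a T-box factor of memory and NK cells, had 15.1, 1.39 and 6.74 CPM in CD73 KO, against 30.1, 34.5 and 2.56 CPM in WT (-1.53 ± 1.04, SE, adjusted p = 0.675, edgeR). WT replicates 1 and 2 were highest and CD73 KO replicate 2 lowest, as at Fcer1g. The Eomes value ran from -2.57 (CD73 KO replicate 1 left out) to -1.03 (CD73 KO replicate 2 left out), and was -1.11 with WT replicate 2 left out. Klf2, a quiescence factor, had 1.46 ± 0.37 (SE, adjusted p = 0.326, edgeR), and 0.87 with CD73 KO replicate 1 left out, the library with 27.2 CPM against 11.5 and 10.6 CPM in the other CD73 KO libraries. Ikzf2, which encodes Helios, had 1.13 ± 0.42 and passed only in the fit without WT replicate 1 among those that left out a library (log2 fold change 1.80, adjusted p = 0.00489), and had 0.81 with WT replicate 2 left out. The receptor chains that IL-15 binds had -0.26 ± 0.15 (Il2rb) and 0.22 ± 0.11 (Il2rg), and Ets1 had 0.10. Over all 5 lists, edgeR and limma-voom called 0 genes (0.0572% and 0.049% of all tested genes). DESeq2 called 4 (Slamf6, Klf2, Tcf7 and H2-Q7), against 0.81% of all.

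Promoter sequences (250 bases before the start site, RefSeq, GRCm38.p6) were held for 6 of the 9 members, and 4 short motifs were searched on both strands. TGTGGT, a motif of RUNX factors, occurred in 4 of these 6 (Klrk1, Klrc1, Klrc2 and Klre1, the last at 1 of its 2 start sites) and not in Klri1 or Fcer1g. It occurred in 14% of 32851 promoters of this length. TTCNNNGAA (STAT factors), TGANTCA (AP-1) and GGTGTGA (T-box factors) occurred in none of the 6, against 7.02%, 6.75% and 3.33% of all promoters. A match describes the letters only. The promoters of the 2 receptor genes with the highest levels among those held are shown on their minus strand. Capitals mark TGTGGT or its reverse complement.
Klrk1 (chr6:129623865-129624114): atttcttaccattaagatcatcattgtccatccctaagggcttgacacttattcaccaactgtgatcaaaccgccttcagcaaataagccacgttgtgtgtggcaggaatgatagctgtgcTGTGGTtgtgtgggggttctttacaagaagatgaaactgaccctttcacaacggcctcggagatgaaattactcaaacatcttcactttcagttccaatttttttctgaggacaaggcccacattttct
Klrc1 (chr6:129678974-129679223): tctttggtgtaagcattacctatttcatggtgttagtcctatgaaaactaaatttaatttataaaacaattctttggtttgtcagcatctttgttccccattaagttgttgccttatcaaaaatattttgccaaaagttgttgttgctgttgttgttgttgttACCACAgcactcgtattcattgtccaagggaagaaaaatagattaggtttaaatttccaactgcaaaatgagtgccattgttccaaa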

How the data were processed

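The authors deposited a table of raw counts (genes by libraries, Ensembl identifiers). Alignment and counting used HISAT2 and featureCounts after fastp, with mm10 as the build, per the submitters' processing notes. Neither versions nor the strand setting, nor the treatment of reads fitting several genes, is given there. Positions and lengths came from GENCODE M21 on GRCm38, which mm10 names. Symbols came from a separate list of gene names, and from GENCODE M21 where that list had none.

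The filter was filterByExpr (count 10, total 15) in edgeR 4.0.16 under R 4.3.3. The test was the quasi-likelihood F-test (TMM, robust, legacy fit) with Benjamini-Hochberg adjustment across the genes kept and a threshold of 0.05. SE is the log2 fold change over the root of F. The script was tested on simulated data. Alternatives were other scalings, filters and fits, DESeq2 1.42.0, limma-voom (limma 3.58.1), a replicate block and each library left out. Fold changes are CD73 KO over WT. Libraries differed by more than counting noise from each other, so none was another library sequenced again. This does not show whether replicates are separate mice or wells.

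Members, gene lists and tests were chosen with earlier results of these data known. The rule named all members and, from each list, genes past the threshold, the 3 most abundant and the 3 with the largest change (mean of at least 5 CPM). It also named the adaptors, H2-T23, Klrc3, Nt5e and, for members spanning at least 1 on the log2 scale, the 3 nearest genes by library pattern. Single marker genes, Cd8a, Tcf7, Fam13b, Tram2, Ptms and the NKG2D ligands were named after their values were seen.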

Additional observations from a re-analysis of the deposited data

How the results depend on the processing

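Over 17 alternatives the log2 fold change kept its sign at every tested member, from 0.21 to 0.30 at Klrd1, 0.28 to 0.41 at Klrk1, 0.12 to 0.37 at Klrc1, 0.65 to 1.07 at Klrc2, 0.32 to 0.50 at Klre1, 0.50 to 0.87 at Klri2 and -2.25 to -1.40 at Fcer1g. The count of members called, 0, became 2 without a filter on low counts and 1 with DESeq2, and stayed at 0 in each fit that left out a library and with libraries thinned to the smallest total or Klrc2 and Klrc3 summed, which were chosen after seeing the data. The count of all genes called, 7, became 298 without a filter and 99 with DESeq2, and ran from 4 (without CD73 KO replicate 2 or WT replicate 2) to 8 when a library was left out. That of the 5 lists, 0, became 9 without a filter and 4 with DESeq2, and ran from 0 to 1 (Ikzf2, without WT replicate 1). The causes of these moves were not tested.

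With the replicate number as a block, 0 members, 0 list genes and 5 genes in all were called. The sample titles carry the same numbers in both genotypes, and whether these pair the libraries is not given. Deviations of same-numbered libraries from their group mean had Pearson's r of 0.15, -0.17 and 0.01 across genes. Unlike-numbered libraries ran from -0.32 to 0.36. With 3 libraries per group these values cannot settle whether libraries are paired, and the main test used no pairing.

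Small values turned when a library was left out. Cd48 (0.01) ran from -0.125 to 0.077, below 0 without CD73 KO replicate 1 (-0.125) or WT replicate 3 (-0.040). Ly9 (0.07) ran from -0.127 to 0.199, below 0 without the same libraries (-0.127 and -0.017). Hcst (0.31) ran from -0.026, without CD73 KO replicate 1, to 0.535. Lck (-0.04) ran from -0.088 to 0.012, above 0 without CD73 KO replicate 2. Ptpn6 (-0.02) ran from -0.122 to 0.095, being 0.095 without CD73 KO replicate 1 and 0.000 when WT replicate 1 was left out. Pik3cd (0.00) ran from -0.113 to 0.068, and was -0.000 with RLE factors, -0.007 with the block, -0.005 with DESeq2, -0.009 with limma-voom and -0.025 with thinning. It was -0.113 when CD73 KO replicate 3 was left out, -0.005 for WT replicate 1 and -0.029 for WT replicate 2. Depth limits Klri1, Klrg1 and Tyrobp, which were too low to test.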
